A study of Mus musculus with 4 samples.

Results

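This account follows 29 genes that mark the path from a lymphoid-primed progenitor to a B cell. They were taken by name from the deposited gene table, and all 29 were among its 15607 genes. The RNA came from mouse bone marrow cells labelled as stem and progenitor cells, from which cells with lineage markers had been removed. Of the mice, 2 (numbers 5 and 6) carried the Mel18 knockout, made conditional to the hematopoietic system, and 2 (numbers 1 and 3) were wild type, with 1 library each. Mel18 is encoded by Pcgf2 and belongs to the Polycomb complex PRC1, which modifies histones at repressed genes. The labels give neither the promoter that drives the recombinase, nor the deleted exons, the age, the sex or the strain, nor the antibodies that defined the lineage-negative gate.

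Lymphoid development begins in multipotent progenitors that express the receptor Flt3 and low levels of lymphoid genes, a state called priming. Signals through the IL-7 receptor and the factors Foxo1, Ebf1 and Pax5 then commit cells to the B lineage, while the Rag recombinase assembles the heavy chain gene. The new heavy chain pairs with a surrogate light chain, made of VpreB and lambda5, and with Cd79a and Cd79b to form the pre-B receptor. Later B cells lose the surrogate light chain and carry surface proteins such as CD20 and CD22. Common lineage cocktails include a B lineage antibody, so how many such cells remain depends on the gate.

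The libraries held 46240864 and 44642002 counts in knockout mice 5 and 6, and 35599564 and 37197363 counts in wild type mice 1 and 3. Levels are given as CPM, which are counts scaled to library size by the TMM method, or as RPKM, which also divides by gene length. Pcgf2 itself was at 6.56 and 7.19 CPM in the knockout libraries, and at 5.74 and 4.36 CPM in the wild type ones (log2 fold change 0.44 ± 0.20, SE, adjusted p = 0.575). The deleted exons are not named, so this does not check the genotype. The transcript of the targeted gene was thus not lower in the libraries labelled knockout, and every direction here is between libraries by label. The stem and progenitor receptor Kit was at 238 and 207 CPM in the knockout mice and 226 and 195 CPM in the wild type mice. Of the 12 listed stem and progenitor markers, Kit among them, 9 had a negative log2 fold change and 3 a positive one.

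Some sequences bear directly on what can be read from these genes. Vpreb1 and Vpreb2 are near copies on chromosome 16, separated by 1109584 bases. Their coding sequences, taken from GENCODE M21, have 426 bases each and differ at 9 of them, an identity of 97.9%. Of all 50-base windows in the Vpreb1 coding sequence, 43.0% occur unaltered in Vpreb2. A single read of 50 bases from such a window cannot be assigned to either gene. The coding bases 268 to 387 are shown because they hold 6 of the 9 differences, which are in capitals.
Vpreb1: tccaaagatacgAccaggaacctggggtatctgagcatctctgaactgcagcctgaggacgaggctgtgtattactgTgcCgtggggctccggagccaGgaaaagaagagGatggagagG
Vpreb2: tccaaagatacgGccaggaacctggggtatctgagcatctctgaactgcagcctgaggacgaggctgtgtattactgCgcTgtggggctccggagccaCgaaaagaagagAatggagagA

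RefSeq promoters on GRCm38.p6, each with 250 bases before and 50 bases after a start site, were found for 24 of the 29 genes. Both strands were searched for 3 motifs: the E-box CAGGTG bound by E proteins, the Ebf1 motif, TCCC and GGGA spaced by 2 bases, and the octamer ATTTGCAT. An E-box stood in a promoter of 13 of these 24 genes, against 22.6% of all genes with a promoter. Counted by promoter, it stood in 44.1% of those of the members and in 20.21% of all. The Ebf1 motif was found for Cd22 and Foxo1, where 1.06% of all genes hold it, and the octamer for Blnk, Cnr2 and Vpreb3, where 1.97% do. A match describes letters in a window and shows no binding. Upstream stretches outside the exons of the gene are shown for Cd79a, Cd22 and Fcrla, whose knockout and wild type libraries did not overlap, and for Igll1, whose libraries did. Capitals mark E-boxes on either strand or, in Cd22, the Ebf1 motif.
Cd79a, chr7:24897247-24897380, plus strand: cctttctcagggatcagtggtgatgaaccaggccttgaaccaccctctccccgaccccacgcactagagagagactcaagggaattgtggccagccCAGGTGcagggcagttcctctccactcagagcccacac
Cd22, chr7:30879029-30879176, minus strand: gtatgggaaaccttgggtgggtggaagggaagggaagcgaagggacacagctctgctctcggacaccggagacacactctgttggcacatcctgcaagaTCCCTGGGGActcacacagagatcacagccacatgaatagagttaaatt
Fcrla, chr1:170927584-170927833, minus strand: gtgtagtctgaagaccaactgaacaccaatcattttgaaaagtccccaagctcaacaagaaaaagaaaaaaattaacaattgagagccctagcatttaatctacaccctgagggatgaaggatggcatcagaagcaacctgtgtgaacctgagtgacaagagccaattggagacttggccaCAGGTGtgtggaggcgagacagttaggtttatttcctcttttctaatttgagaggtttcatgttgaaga
Igll1, chr16:16863986-16864235, minus strand: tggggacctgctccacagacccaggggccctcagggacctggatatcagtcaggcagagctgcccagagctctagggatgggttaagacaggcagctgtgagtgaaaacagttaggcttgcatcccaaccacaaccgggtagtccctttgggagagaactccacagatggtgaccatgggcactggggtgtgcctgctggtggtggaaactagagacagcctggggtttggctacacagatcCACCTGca

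Transcripts from every stage were counted in these lineage-negative cells, which follows from taking the members from the deposited table. It does not show that cells of each stage were present. No gene of the 29 was past the threshold between genotypes. Cd24a, a surface glycoprotein also carried by erythroid and myeloid precursors, stood far above the rest at a mean of 259.6 RPKM over the 4 libraries. Ly6d, Cd79b, Cd79a and the polymerase gene Dntt followed at 43.3, 42.4, 24.0 and 19.5 RPKM. The lowest means were those of Rag2, Lef1, Bank1 and Vpreb2, at 0.780, 0.801, 1.06 and 1.17 RPKM. Neighbours in this order mostly overlapped between libraries: Cd79b spanned 32.5 to 48.1 RPKM and Ly6d 36.2 to 51.6 RPKM. Members had between 149 counts (Vpreb2) and 109696 counts (Cd24a) over the 4 libraries.

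**Figure D1:**
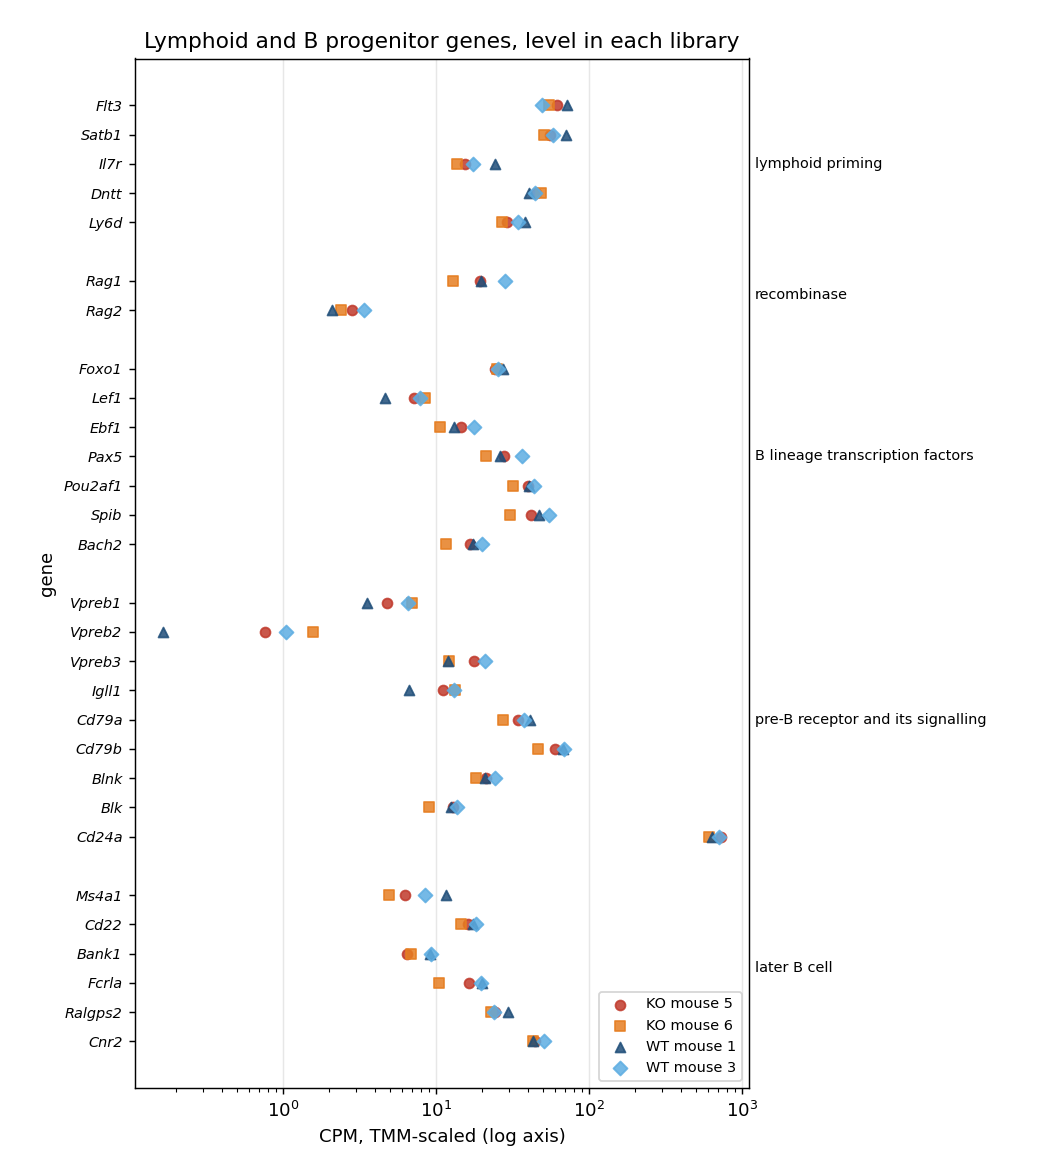
Level of each of the 29 genes in each library, in TMM-scaled CPM on a log axis, with genes grouped by stage and symbols for the 4 mice. Cd24a lies at 609.8 to 728 CPM, Vpreb2 has the widest scatter, from 0.164 CPM in wild type mouse 1 to 1.57 CPM in knockout mouse 6, and most other genes lie close together in all libraries.

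In the edgeR quasi-likelihood test, with Benjamini-Hochberg adjustment over all genes, 0 of the 29 members passed an adjusted p of 0.05, where 0.135% of all genes did (0.032% higher and 0.103% lower). The smallest adjusted p was 0.294, for Ms4a1. At an unadjusted p under 0.05 there were 9 members, all lower in knockout, where 8.89% of all genes were at that level, 3.33% higher and 5.56% lower. A negative log2 fold change was found for 24 of 29 members and for 51.2% of all genes. The median log2 fold change was -0.23 over the members and -0.0053 over all genes tested. The pair of knockout values was wholly under the wild type pair for 14 members, where 20.9% of all genes did so. It was wholly above for 1 member, Dntt, where 21.4% of all genes did so. The DESeq2 Wald test called 1 member, Ms4a1 (adjusted p = 0.0487), where it called 1.47% of the genes it gave an adjusted p. Limma voom called 0 members, but it called 0 of all genes as well. The edgeR likelihood ratio test called 0 members and 177 of all genes. The authors' deposited table holds 0 members at an adjusted p under 0.05, where it calls 1.13% of all genes. Its adjusted p for Ms4a1 was 0.1485, against 0.1486 in the likelihood ratio test, so it adds little to that test.

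These are small differences, and their errors limit them on both sides. The 95% interval of the log2 fold change comes from the same F statistic as the unadjusted p. It therefore lay below 0 for the same 9 members counted above at an unadjusted p under 0.05, and above 0 for 0. It lay within a 2-fold change either way for 23 members and reached beyond it for 6: Rag1, Vpreb1, Vpreb2, Igll1, Ms4a1 and Fcrla. With each library left out in turn, the log2 fold change stayed within 1.5 times its value for 3 members, Ly6d, Bank1 and Ms4a1. It moved further without a change of sign for 18, and changed sign for 8. In bulk RNA, fewer cells of a type and less RNA per cell cannot be told apart.

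**Figure D2:**
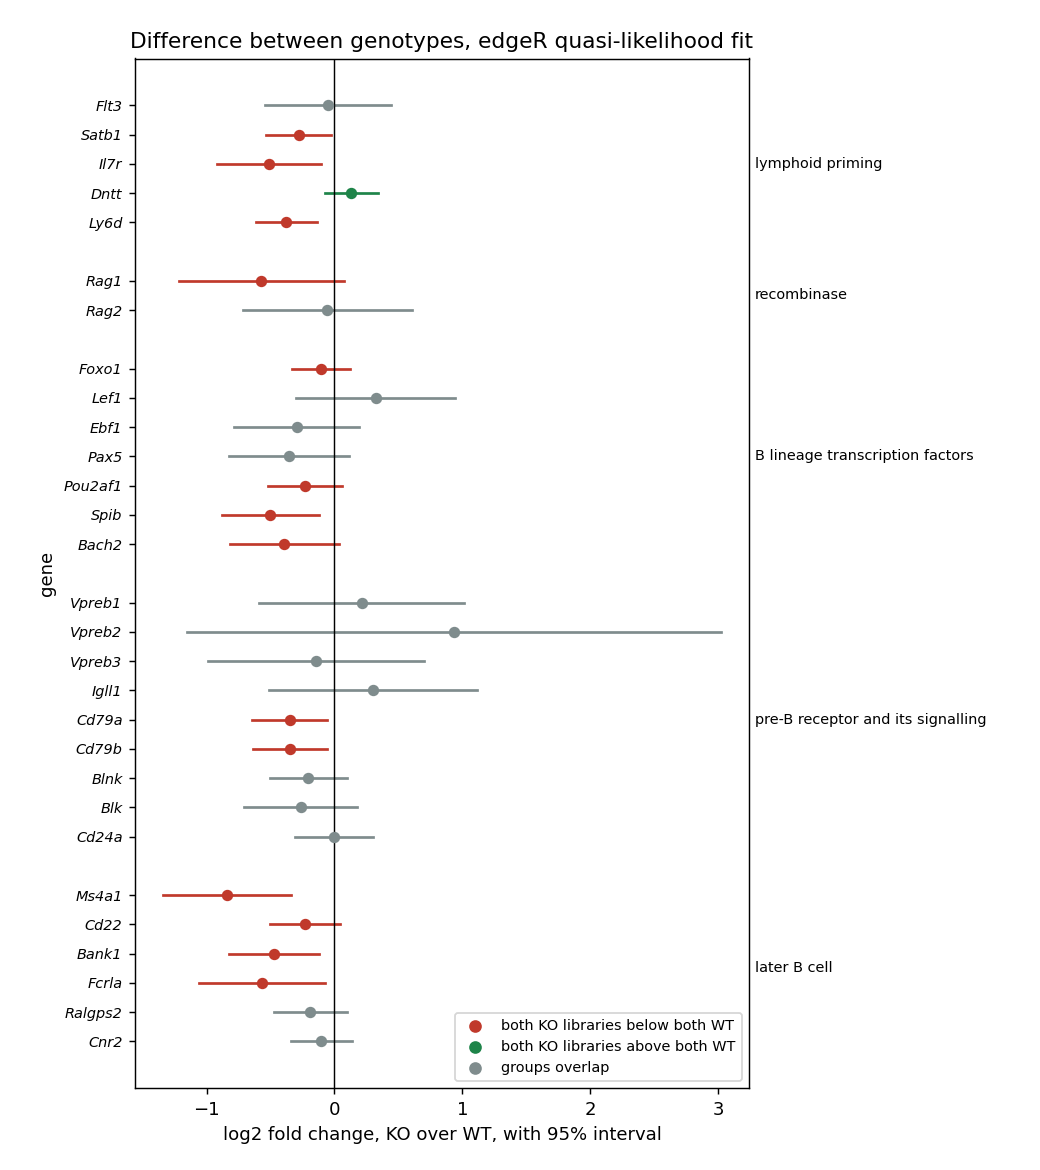
Log2 fold change of each gene, knockout over wild type, with its 95% interval from the quasi-likelihood fit and genes grouped by stage. Red marks the 14 genes with both knockout libraries below both wild type libraries, green the 1 gene with both above, and grey the 14 whose groups overlap.

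Among the genes of lymphoid priming, Il7r, Ly6d and Satb1 had lower levels in both knockout mice, Dntt had slightly higher ones, and Flt3 overlapped. Il7r, the alpha chain of the IL-7 receptor, was at 15.5 and 13.7 CPM in the knockout mice, against 24.4 and 17.4 CPM in the wild type mice. The knockout libraries were both below the wild type ones, but wild type mouse 1 stood well above mouse 3. The log2 fold change was -0.51 ± 0.17 (SE, adjusted p = 0.458 by quasi-likelihood), with -0.25 without wild type mouse 1 and -0.75 without wild type mouse 3. Ly6d, a surface protein of B-biased lymphoid progenitors, was at 29.2 and 26.9 CPM in the knockout mice and 38.4 and 34.5 CPM in the wild type mice. Here the replicates lay close together, and the log2 fold change was -0.38 ± 0.10 (SE, adjusted p = 0.334). Satb1, a chromatin organiser of early lymphoid progenitors, was at 55.8 and 50.7 CPM in the knockout mice and 70.7 and 58.5 CPM in the wild type mice (log2 fold change -0.28, adjusted p = 0.515). Its groups did not overlap, with a narrow gap between knockout mouse 5 and wild type mouse 3.

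Flt3, the receptor tyrosine kinase of primed progenitors, was at 61.7 and 55.0 CPM in the knockout mice, and at 72.1 and 48.96 CPM in the wild type mice. Both knockout values lay between the 2 wild type values, so the groups overlapped (log2 fold change -0.053, adjusted p = 0.941). Dntt, the template-independent polymerase that adds bases at V(D)J junctions, was at 45.2 and 48.4 CPM in the knockout mice and 40.7 and 44.7 CPM in the wild type mice. It was the only member of the 29 with both knockout libraries above both wild type ones, by a margin smaller than the spread within either group (log2 fold change 0.13 ± 0.088, SE, adjusted p = 0.666). The median of the 5 priming genes was -0.28. Without wild type mouse 1 it was -0.14, and without wild type mouse 3 it was -0.42.

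Rag1 and Rag2, the subunits of the V(D)J recombinase, are neighbours on chromosome 2 with 5752 bases between them. Rag1 was at 19.2 and 12.9 CPM in the knockout mice, and at 19.6 and 28.2 CPM in the wild type mice. Both knockout values were below both wild type values, yet knockout mouse 5 and wild type mouse 1 were nearly equal. Its log2 fold change was -0.57 ± 0.26 (SE, adjusted p = 0.590 by quasi-likelihood), and was -0.31 without knockout mouse 6 and -0.29 without wild type mouse 3. Rag2 was at 2.84 and 2.40 CPM in the knockout mice and 2.08 and 3.37 CPM in the wild type mice, with overlap (log2 fold change -0.057, adjusted p = 0.958). Per length, Rag1 was the higher of the pair, at a mean of 3.02 RPKM against 0.780 RPKM for Rag2. Exons of the gene B230118H07Rik overlap 6.07% of the exonic bases of Rag2.

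Of the 7 transcription factor genes of the B lineage, Spib, Bach2, Pou2af1 and Foxo1 had both knockout libraries below both wild type ones, and Ebf1, Pax5 and Lef1 overlapped. Spib, an Ets factor of B cells that plasmacytoid dendritic cells also express, was at 41.4 and 30.4 CPM in the knockout mice and 47.2 and 54.4 CPM in the wild type mice. Knockout mouse 6 was the lowest, and the log2 fold change was -0.50 ± 0.16 (SE, adjusted p = 0.442). Bach2, a repressor that delays plasma cell differentiation, was at 16.7 and 11.7 CPM in the knockout mice and 17.4 and 19.9 CPM in the wild type mice (log2 fold change -0.39, adjusted p = 0.583). Pou2af1, the coactivator of octamer-binding factors, had 39.9 and 31.8 CPM in the knockout mice and 40.4 and 43.5 CPM in the wild type mice (log2 fold change -0.23, adjusted p = 0.612). In both genes knockout mouse 5 lay just under wild type mouse 1, and knockout mouse 6 was well below.

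Ebf1, which with Pax5 fixes B cell identity, was at 14.5 and 10.6 CPM in the knockout mice, and at 13.01 and 17.8 CPM in the wild type mice. Pax5 was at 27.7 and 21.1 CPM in the knockout mice and 26.2 and 36.2 CPM in the wild type mice. The order of the 4 mice was the same in both genes, with knockout mouse 6 lowest, wild type mouse 1 next and wild type mouse 3 highest. Their log2 fold changes were -0.30 ± 0.21 and -0.35 ± 0.19 (SE), with quasi-likelihood adjusted p of 0.679 and 0.620. With 1 library left out they ranged from -0.54 to -0.061 for Ebf1 and from -0.57 to -0.11 for Pax5, both nearest to 0 without wild type mouse 3. Foxo1, which activates the genes of Il7r and Rag, was nearly level, at 24.4 and 24.9 CPM in the knockout mice and 27.6 and 25.5 CPM in the wild type mice (log2 fold change -0.11, adjusted p = 0.745). Lef1, a Wnt pathway factor of pro-B cells, was at 7.14 and 8.51 CPM in the knockout mice and 4.62 and 7.90 CPM in the wild type mice. Wild type mouse 1 was low, and the log2 fold change of 0.32 turned to -0.013 without it. The antisense gene Gm43352 overlaps 13.7% of the exonic bases of Lef1, and the library chemistry does not mark strand.

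The components of the pre-B receptor did not share a direction. Cd79a and Cd79b, its signalling chains, were lower in both knockout mice, whereas the surrogate light chain genes scattered between mice of one genotype. Cd79b was at 60.3 and 46.5 CPM in the knockout mice, and at 67.2 and 68.8 CPM in the wild type mice. Cd79a was at 34.2 and 27.4 CPM in the knockout mice, and at 40.9 and 37.6 CPM in the wild type mice. In both genes the groups did not overlap, and knockout mouse 6 was the lowest library. The log2 fold changes were alike, -0.35 ± 0.12 (SE) for Cd79b and -0.35 ± 0.12 (SE) for Cd79a, with quasi-likelihood adjusted p of 0.479 and 0.476. Without knockout mouse 6 they were -0.17 for Cd79b and -0.20 for Cd79a, and without knockout mouse 5 they were -0.55 and -0.52.

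Igll1, the gene of lambda5, was at 11.1 and 13.3 CPM in the knockout mice, and at 6.67 and 13.1 CPM in the wild type mice. Vpreb1 had 220 and 310 counts, or 4.76 and 6.94 CPM, in the knockout mice, and 129 and 238 counts, or 3.53 and 6.57 CPM, in the wild type mice. Its near copy Vpreb2 had 35 and 70 counts in the knockout mice and 6 and 38 counts in the wild type mice. For all 3 genes wild type mouse 1 was the lowest library and wild type mouse 3 lay within the knockout range. Vpreb3, which associates with immunoglobulin chains in early B cells, was at 17.6 and 12.1 CPM in the knockout mice and 12.03 and 20.8 CPM in the wild type mice. The log2 fold changes were 0.30 ± 0.32 for Igll1, 0.21 ± 0.33 for Vpreb1, 0.93 ± 0.81 for Vpreb2 and -0.14 ± 0.32 for Vpreb3 (SE), with quasi-likelihood adjusted p of 0.782, 0.848, 0.743 and 0.906.

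Because part of their coding sequence is shared, Vpreb1 and Vpreb2 were also counted together. They had 255 and 380 counts in the knockout mice and 135 and 276 counts in the wild type mice. The counter is not named, so how shared reads were assigned is not known. The share assigned to Vpreb2 was 13.7% and 18.4% in the knockout mice, and 4.44% and 13.8% in the wild type mice. The summed gene had a log2 fold change of 0.31 and again overlapped between groups. Without wild type mouse 3, where 5.41% of all genes passed, Igll1 was past the threshold at a log2 fold change of 0.86 (adjusted p = 0.0329), and without wild type mouse 1 it was at -0.10 (adjusted p = 0.879). The direction of Igll1 therefore depended on which wild type mouse was used, and the same was true of Vpreb1, at 0.72 without mouse 3 and -0.17 without mouse 1. Vpreb1 was also at -0.084 without knockout mouse 6. Vpreb2 moved furthest, to 0.14 without wild type mouse 1 and 2.79 without wild type mouse 3. Igll1 and Vpreb1 are neighbours on chromosome 16 with 4417 bases between them.

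The pre-B signalling genes Blnk and Blk overlapped between groups. Blnk, the adaptor downstream of the receptor, was at 21.3 and 18.1 CPM in the knockout mice and 21.0 and 24.4 CPM in the wild type mice (log2 fold change -0.20, adjusted p = 0.655). Blk, a Src family kinase, was at 12.9 and 9.002 CPM in the knockout mice and 12.5 and 13.8 CPM in the wild type mice (log2 fold change -0.27, adjusted p = 0.682). Knockout mouse 6 was again the lowest in both, while knockout mouse 5 lay within the wild type range. Cd24a was at 728 and 609.8 CPM in the knockout mice and 638 and 703.6 CPM in the wild type mice, with a log2 fold change of -0.0043 and an interval from -0.31 to 0.30.

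The genes of later B cells all had negative log2 fold changes, and 4 of the 6 did not overlap between groups. Over all genes, 51.2% had a negative log2 fold change and 20.9% had both knockout libraries below both wild type ones. Ms4a1, the gene of CD20 (chromosome 19, 11249675 to 11266241), had 290 and 221 counts in the knockout mice and 425 and 308 counts in the wild type mice. Scaled for depth, these were 6.28 and 4.95 CPM in the knockout mice, and 11.6 and 8.50 CPM in the wild type mice. All 4 libraries had modest counts, and the groups did not overlap. The log2 fold change of -0.84 ± 0.21 (SE, interval -1.34 to -0.34) was the most negative among the members (adjusted p = 0.294 by quasi-likelihood). With 1 library left out it ranged from -1.06, without wild type mouse 3, to -0.60, without wild type mouse 1.

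Fcrla, an intracellular Fc receptor-like protein of B cells, was at 16.3 and 10.5 CPM in the knockout mice, and at 20.0 and 19.7 CPM in the wild type mice. Bank1, a scaffold of B cell receptor signalling, was at 6.41 and 6.83 CPM in the knockout mice, and at 9.13 and 9.25 CPM in the wild type mice. In Bank1 both pairs of replicates were tight, whereas in Fcrla the knockout mice were far apart. The log2 fold changes were -0.57 ± 0.21 for Fcrla and -0.47 ± 0.15 for Bank1 (SE), with quasi-likelihood adjusted p of 0.495 and 0.427. Without knockout mouse 6 the value of Fcrla was -0.28. Cd22, an inhibitory lectin of the B cell receptor, was at 16.1 and 14.5 CPM in the knockout mice and 17.6 and 18.3 CPM in the wild type mice (log2 fold change -0.23, adjusted p = 0.603). Ralgps2, an exchange factor for Ral, was at 24.1 and 22.9 CPM in the knockout mice and 29.5 and 24.0 CPM in the wild type mice. Cnr2, the cannabinoid receptor CB2, was at 44.2 and 43.2 CPM in the knockout mice and 42.8 and 51.1 CPM in the wild type mice. Both overlapped, with log2 fold changes of -0.19 for Ralgps2 and -0.10 for Cnr2 and quasi-likelihood adjusted p of 0.663 and 0.764.

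Mice of one genotype also differed from each other. In wild type mouse 3, relative to wild type mouse 1, the log2 CPM was higher by 0.97 for Igll1, 0.90 for Vpreb1, 0.79 for Vpreb3, 0.77 for Lef1, 0.70 for Rag2, 0.53 for Rag1, 0.47 for Pax5 and 0.45 for Ebf1. In the same comparison the difference was -0.56 for Flt3, -0.49 for Il7r, -0.45 for Ms4a1 and -0.27 for Satb1. Surrogate light chain, recombinase and early B factor genes were thus higher in wild type mouse 3, and Flt3, Il7r, Satb1 and Ms4a1 in wild type mouse 1. Knockout mouse 6 was the lowest of the 4 libraries for 18 of the 29 genes and was below knockout mouse 5 for 22. Wild type mouse 3 was the highest for 14 genes and wild type mouse 1 for 9.

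**Figure D3:**
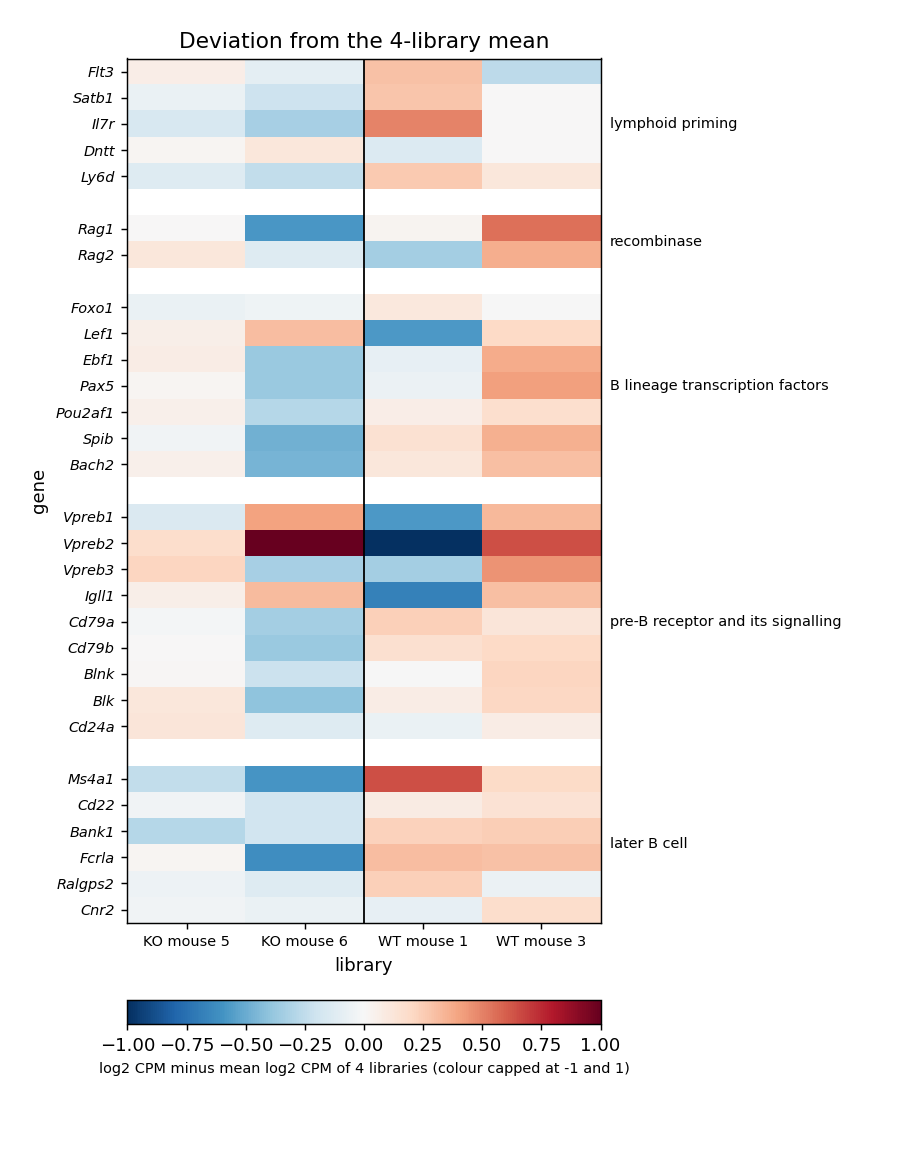
Deviation of log2 CPM from the mean of the 4 libraries for each gene, in colour from blue (below) to red (above), with the knockout mice left of the line and the wild type mice right of it. Knockout mouse 6 is blue for most B lineage genes, and wild type mouse 1 is blue for Lef1, Vpreb1, Vpreb2 and Igll1 and red for Il7r and Ms4a1.

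By stage, the median log2 fold change was -0.28 for priming genes, -0.32 for the recombinase, -0.30 for transcription factors, -0.14 for the pre-B receptor and its signalling, and -0.35 for later B cell genes. With any 1 library left out the later B cell median ranged from -0.41 to -0.22 and that of all 29 members from -0.41 to -0.12. The recombinase and pre-B receptor medians turned to 0.015 and 0.059 without wild type mouse 3. The stage medians were not tested against each other.

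**Figure D4:**
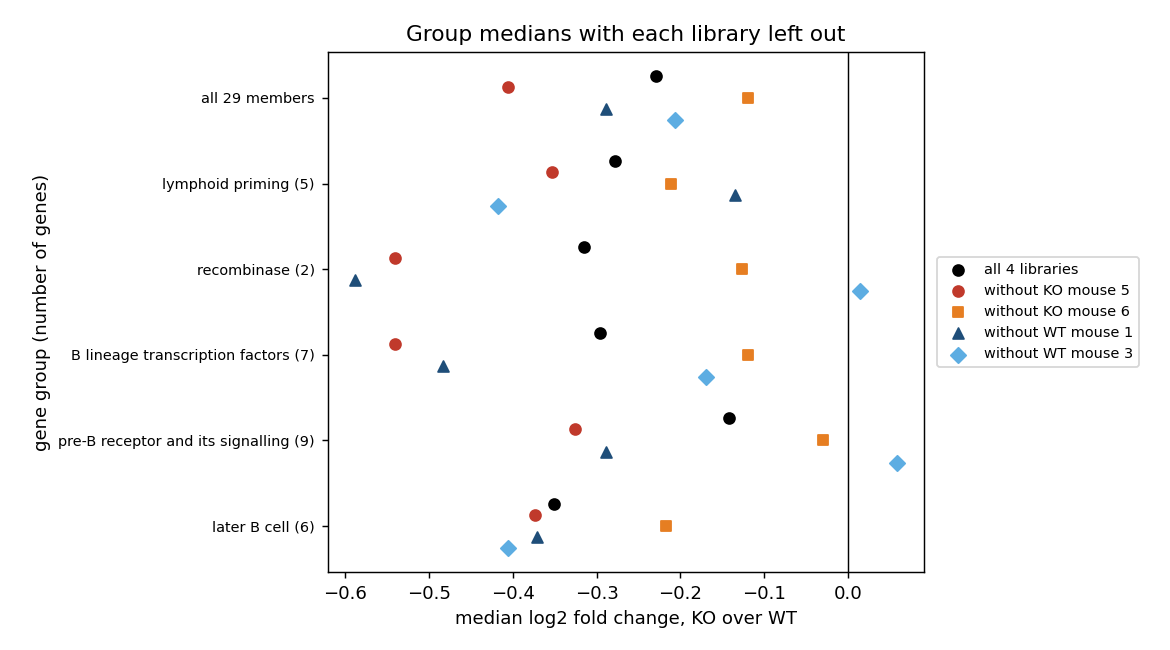
Median log2 fold change, knockout over wild type, of all 29 genes and of each stage, from all 4 libraries (black) and with each library left out in turn (coloured symbols). Later B cell genes stay between -0.41 and -0.22, while the recombinase and the pre-B receptor group cross 0 without wild type mouse 3.

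Partner genes of the same pathways showed no gene past the threshold in either direction. Of 23 further lymphoid transcription factor genes, 0 passed, with 6 lower and 0 higher at an unadjusted p under 0.05. Over all genes, 5.56% were lower and 3.33% higher at that level. Id2, an inhibitor of E proteins, was at 37.3 and 38.5 CPM in the knockout mice and 58.2 and 48.4 CPM in the wild type mice (log2 fold change -0.49, adjusted p = 0.214). For Ets1 the log2 fold change was -0.29 (adjusted p = 0.354) and for Bcl6 it was -0.40 (adjusted p = 0.442), with a list median of -0.072. Among 10 genes of IL-7 receptor signalling, 0 passed, with 2 lower and 0 higher at an unadjusted p under 0.05. Mcl1, a survival factor, was at 265 and 308 CPM in the knockout mice and 368 and 365 CPM in the wild type mice (log2 fold change -0.35, adjusted p = 0.388). Crlf2, a receptor chain for TSLP, was at -0.19 on the log2 scale (adjusted p = 0.543) and Stat5a at 0.12 (adjusted p = 0.667), and the list median was 0.020.

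Of 13 genes that join V(D)J breaks, 0 passed, with 2 higher at an unadjusted p under 0.05, where 3.33% of all genes were higher. Atm, a DNA damage kinase, was at 52.3 and 53.1 CPM in the knockout mice and 41.9 and 40.6 CPM in the wild type mice (log2 fold change 0.36, adjusted p = 0.218). Prkdc, the kinase of end joining, was at 0.27 on the log2 scale (adjusted p = 0.490) and the polymerase gene Polm at -0.26 (adjusted p = 0.600). The list had a median of -0.0044. Of 20 genes of B cell receptor signalling, 0 passed, with 1 lower at an unadjusted p under 0.05, where 5.56% of all genes were lower. The smallest p belonged to Bcl10, Fcgr2b and Cd72. Their log2 fold changes were -0.21, -0.17 and -0.42, with quasi-likelihood adjusted p of 0.485, 0.564 and 0.569. The median was -0.084, and 17 of the 20 overlapped between groups. Both knockout libraries were below both wild type ones for 3 and above for 0, where 20.9% and 21.4% of all genes were.

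Marker lists of other cell types were read in the same libraries. The 17 measured mature B cell markers summed to 7070 and 6702 CPM in the knockout mice, and to 10826 and 5631 CPM in the wild type mice, with overlap, and most of this sum was the immunoglobulin gene Igkc. Without immunoglobulin genes, the other 14 summed to 633 and 607 CPM in knockout mice and 707 and 716 CPM in wild type mice. Of these 14, 9 were lower in both knockout libraries, 1 was higher in both, Cxcr5, and 4 overlapped. Among all genes tested, 20.9% were lower and 21.4% higher in both knockout libraries. Most of the sum of the 14 came from Cd37 and Cd74. The remaining 12 summed to 184 and 159 CPM in knockout mice and 191 and 209 CPM in wild type mice. Fcer2a, the gene of CD23 on mature B cells, was at 0.584 and 0.381 CPM in the knockout mice. In the wild type mice it was at 1.09 and 1.22 CPM (log2 fold change -1.25, quasi-likelihood adjusted p = 0.346). These levels were low, and its log2 fold change was the most negative of the 17 markers, whose median was -0.25. Both sums without immunoglobulin genes were lower in the knockout mice, the smaller one only slightly so in knockout mouse 5 than in wild type mouse 1, and the part of mature B cells in the values of the 29 genes was not tested.

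The 12 plasmacytoid dendritic cell markers summed to 830 and 875 CPM in knockout mice and 928 and 875 CPM in wild type mice. Both knockout libraries were lower for 7 of them and higher for 1, and 4 overlapped. The shares of all genes were 20.9% lower and 21.4% higher in both knockout libraries. The defining marker Siglech was at 17.9 and 15.9 CPM in the knockout mice and 16.8 and 17.3 CPM in the wild type mice, with no separation. The 8 plasma cell markers summed to 1919.5 and 1870 CPM in the knockout mice and 2925 and 1493 CPM in the wild type mice, and overlapped. The 14 T cell markers summed to 192 and 217 CPM in the knockout mice and 291 and 203 CPM in the wild type mice, and the 8 NK cell markers to 317 and 306 CPM against 388 and 311 CPM. In each of the last 3 lists wild type mouse 1 was the high library, as it was for Il7r and Ms4a1. The 12 stem and progenitor markers summed to 687 and 651 CPM in the knockout mice and 807 and 612 CPM in the wild type mice, also with overlap.

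Larger differences lay outside the lymphoid lists. The 12 neutrophil markers summed to 14205 and 14430 CPM in the knockout mice, and to 20168 and 28626 CPM in the wild type mice, with 11 of 12 lower in both knockout libraries and 2, Cxcr2 and Retnlg, past the threshold. The 14 measured markers of stroma and bone summed to 780 and 734 CPM in the knockout mice. In the wild type mice they summed to 159 and 265 CPM. Of the 14, 10 were higher in both knockout libraries, 5 were higher at an unadjusted p under 0.05, and 0 were past the threshold. Over all genes, 20.9% had both knockout libraries below and 21.4% both above, and 0.135% were past the threshold. Among all measured markers of these lists, the stromal gene Lum was the only one with a library at 0 counts, in wild type mouse 1. The neutrophil and stroma sums thus differed by label, whereas the sum of the 29 genes overlapped. It was 1405.5 and 1196.4 CPM in the knockout mice and 1377.2 and 1461.2 CPM in the wild type mice. Cd24a alone held 728 and 609.8 CPM of it in the knockout mice, and 638 and 703.6 CPM in the wild type mice. By stage, the sums of transcription factor and later B cell genes were lower in both knockout mice. The sums of the priming, recombinase and pre-B receptor groups overlapped. The part of neutrophils and stroma in the values of the 29 genes was not tested.

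**Figure D5:**
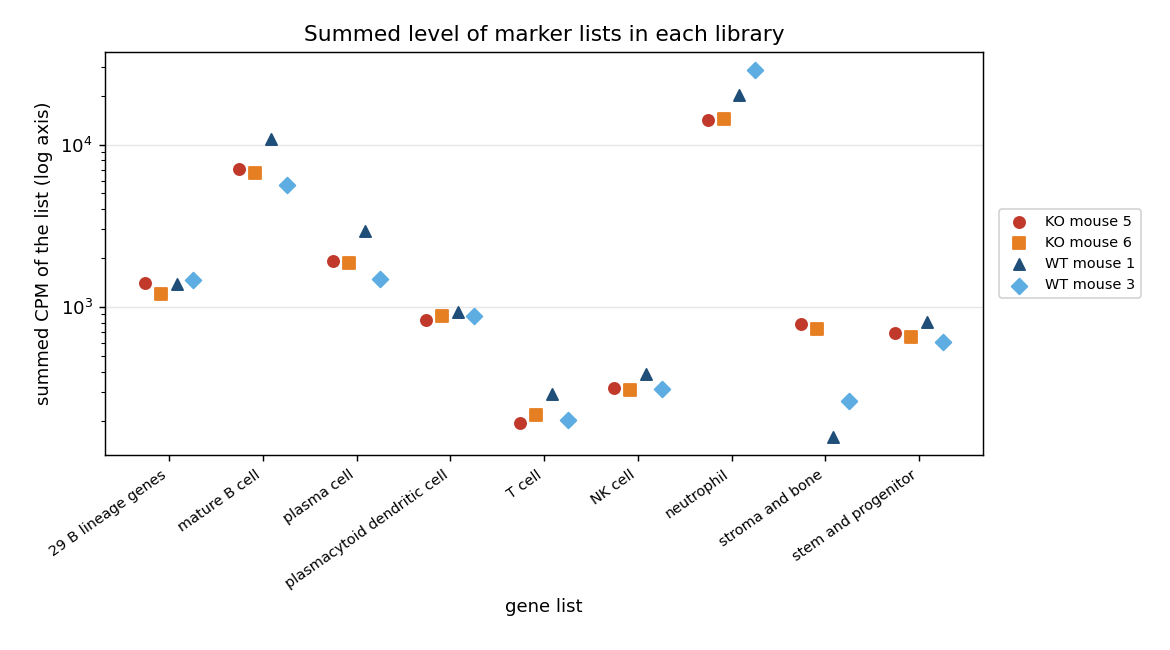
Summed CPM, on a log axis, of the 29 lymphoid and B lineage genes and of 8 marker lists in each library, with knockout mice left of wild type mice within each list. Neutrophil sums are lower and stroma and bone sums higher in both knockout mice, while the other lists overlap or differ little.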

How the data were processed

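The deposited gene table holds raw counts per gene, and per the file headers it also holds log2 CPM and log2 RPKM values and the log2 fold change, p-value and adjusted p-value of the authors' own comparison. Of these only the counts, the gene lengths and the adjusted p-values were used here. FastQC, MultiQC 0.11.5, Trimmomatic 0.40, STAR 2.5, edgeR 3.28.1 and build mm10 are named in the submitters' processing notes. Per the labels' protocols, SMART-Seq v4 cDNA was made into Nextera XT libraries, a chemistry that does not mark strand. The sources used here name no counter and no annotation release. A further 2 columns of per-sample values match no described sample and were not used.

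Counts of 4 libraries were fitted with edgeR 4.0.16 in R 4.3.3 (TMM, filterByExpr, which removed 0 genes, robust quasi-likelihood F test), adjusted over 15607 genes with a threshold of 0.05. Standard errors came from the F statistic, and 95% intervals from the t distribution with the fitted degrees of freedom. The labels number separate mice, but nothing more is said of their independence. Libraries of one genotype differed beyond sampling noise (chi-square per degree of freedom over all genes 38.7 for the knockout mice and 40.3 for the wild type mice). Pairs across genotypes ranged from 33 (knockout mouse 6 with wild type mouse 3) to 64.3, and over the members alone from 14.8 (knockout mouse 5 with wild type mouse 3) to 63.7, against 38.4 and 27.7 within the genotypes. RPKM used the deposited exonic length, which for Igll1 includes a retained intron. The members, stages and lists were chosen with earlier results of these data known. All 29 members are named, with Pcgf2 and, from each pathway list, the 3 genes of smallest p; marker genes are named where a result turns on them. Kit, Fcer2a, Cxcr5, Cd37, Cd74 and Lum were picked after their values were seen. The fit was tested on simulated counts. Alternatives were other scalings, tests and filters, summing Vpreb1 with Vpreb2, and leaving out each library, with limma 3.58.1 and DESeq2 1.42.0.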

Additional observations from a re-analysis of the deposited data

How the results depend on the processing

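The count of members past the threshold was 0 under every alternative except the DESeq2 Wald test (1, Ms4a1), and ranged from 0 to 5 with 1 library left out; the 5, without wild type mouse 3, where 5.41% of all genes (844 of 15606) passed, were Satb1, Il7r, Ly6d, Igll1 and Ms4a1. With 1 library left out, the lone mouse was assumed to vary like the remaining pair. The count over all genes was 21, against 216 with the DESeq2 Wald test, 177 with the likelihood ratio test, 10 with a filter of 1 CPM in 2 libraries, 4 without robust estimation and 0 with limma voom (1363 at an unadjusted p under 0.05), and from 5 to 844 with 1 library left out. Other scalings moved the median of all genes by less than 0.1. With 1 library left out, group medians ranged from -0.42 to -0.14 for priming genes, -0.59 to 0.015 for the recombinase, -0.54 to -0.12 for transcription factors and -0.33 to 0.059 for the pre-B receptor group. Single genes that changed sign only in that way ranged from -0.31 to 0.25 for Flt3, -0.36 to 0.32 for Rag2, -0.013 to 0.75 for Lef1, -0.17 to 0.72 for Vpreb1, -0.48 to 0.30 for Vpreb3, -0.10 to 0.86 for Igll1, -0.14 to 0.12 for Cd24a and -0.22 to 0.021 for Cnr2. The causes were not tested. No paired analysis was possible because the groups share no replicate number. Low counts limit Vpreb2 (149 counts in all). Antisense or other genes overlap exons of 9 members, by at most 13.7%.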
